A study of Mus musculus with 9 samples.

Results

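Jun, Klf6 and Bcl6 are 3 transcription factor genes that were chosen by name, as unstable messages that would be looked for among the falls when the elongation kinase CDK9 is blocked. All 3 were found in the 251-gene table that sets dinaciclib against vehicle, and 0 of the 3 were in the 471-gene table of the second compound, MGH-CP1, so that they were not analysed here for that compound. The direction named in the choice held for Klf6 and Bcl6, which were lower with dinaciclib, and not for Jun, which was higher. The table is labelled as one of cancer genes, so that shares over it do not describe the whole response to dinaciclib. The authors picked every listed gene for change, and 75.0% of all tested genes were lower. These falls therefore do not set Klf6 and Bcl6 apart. Levels are shares of a library, so that more Jun message and less of all other RNA cannot be told apart. Message lifetimes were not measured in these data.

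The cells were EHE17, a mouse tumour cell line labelled as endothelial, and the vehicle and dinaciclib groups shared the genotype TC+/+ Cdkn2a -/-. Vehicle cells received DMSO and treated cells 300 nM dinaciclib for 16 h, with 3 biological replicates in each group. All replicates came from a single line, and the labels do not say whether they were separate cultures, so that the p-values measure the spread between these samples. Poly(A)-selected RNA was sequenced without a strand mark.

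Dinaciclib is an inhibitor of several cyclin-dependent kinases, CDK9 included. As the kinase of P-TEFb, CDK9 releases RNA polymerase II from its pause close to the start of genes. When new transcripts stop, messages that decay quickly are the ones lost soonest, and messages of induced transcription factors are known as a short-lived class. JUN is a basic leucine zipper protein and a subunit of AP-1, which it forms with FOS or ATF partners; the JNK kinases phosphorylate it, and it is known to act on its own promoter. KLF6 is a Kruppel-like zinc finger factor that binds GC-rich promoters and responds to injury in vascular cells. BCL6 is a zinc finger repressor with a BTB domain, best known in germinal centre B cells, where it holds down Prdm1.

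Jun (ENSMUSG00000052684) lies on the minus strand of chromosome 4, from 95049034 to 95052222, and has 1 exon. Klf6 (ENSMUSG00000000078) lies on the plus strand of chromosome 13, from 5861482 to 5870394, with 4 exons. Bcl6 (ENSMUSG00000022508) lies on the minus strand of chromosome 16, from 23965052 to 23988852, with 10 exons. These coordinates are those of the table and of GENCODE M21 on GRCm38. The median gene of the table spanned 40.9 kb with 12 exons, while Jun spanned 3.19 kb, Klf6 8.91 kb and Bcl6 23.8 kb. Of the 251 genes, 8 had a principal transcript of 1 exon, of which 3 were higher and 5 lower in the authors' deposited table. Factor genes of this kind lay on both sides in the authors' deposited table: Hmga1b had a log2 change of 4.66, while Maf and Cebpa had −1.53 and −2.97.

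The stretches just before the first transcribed base are shown because Jun and Klf6, which went opposite ways, carry the same 8-base element there, and Bcl6 carries none of the 3 AP-1 and CRE elements searched. They were taken from RefSeq promoters of GRCm38.p6, at chr4:95052223-95052472 on the minus strand for Jun, chr13:5861239-5861481 on the plus strand for Klf6 and chr16:23988853-23989102 on the minus strand for Bcl6. Capitals mark matches to TGACATCA, TGACGTCA or TGACTCA on either strand.
Jun: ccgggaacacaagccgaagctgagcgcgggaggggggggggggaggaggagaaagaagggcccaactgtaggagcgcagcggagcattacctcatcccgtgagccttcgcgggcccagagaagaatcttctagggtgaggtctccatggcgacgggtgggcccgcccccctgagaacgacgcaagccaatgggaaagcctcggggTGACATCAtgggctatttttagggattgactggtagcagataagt
Klf6: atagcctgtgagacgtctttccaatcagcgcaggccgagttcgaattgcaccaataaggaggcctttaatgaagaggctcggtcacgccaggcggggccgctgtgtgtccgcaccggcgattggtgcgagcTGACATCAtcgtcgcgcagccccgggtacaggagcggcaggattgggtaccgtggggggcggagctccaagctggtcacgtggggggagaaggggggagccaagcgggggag
Bcl6: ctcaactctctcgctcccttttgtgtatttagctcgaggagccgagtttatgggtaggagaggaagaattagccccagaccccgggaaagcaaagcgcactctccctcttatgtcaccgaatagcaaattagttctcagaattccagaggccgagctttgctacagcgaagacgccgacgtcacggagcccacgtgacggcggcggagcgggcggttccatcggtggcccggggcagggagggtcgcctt
The element was TGACATCA in both genes, at −45 to −38 from the start in Jun and at −119 to −112 in Klf6, counting the base before the RefSeq start as −1. It was found in 3.37% of 32544 promoters of 300 bases (250 before the start and 50 after it). In the table, 194 genes had a promoter, and 5 of them held it, of which 1 was higher (Jun) and 4 lower (Klf6, Cic, Il21r and Ralgds). TGACGTCA was found in 1.80% and TGACTCA in 5.19% of all promoters, and neither in the 3 genes. The GC box GGGCGG, a motif of the SP and KLF factors, was in all 3 genes, as it was in 35.9% of all promoters and in 76.8% of the matched table genes. The share of table genes counts a gene with a match in any of its promoter windows. It is therefore not a like measure to the share of promoters. The BCL6-type motif TTCCTNGAA, in 1.60% of all promoters, was found in a second promoter window of Bcl6 that lies inside the gene. All searches covered both strands, and a match describes the letters and not a bound site.

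The AU-rich pentamer AUUUA, written ATTTA in DNA letters, is a hallmark of unstable messages, so the 30-base windows of the 3' untranslated regions that hold most copies are shown with the pentamer in capitals (the most AT-rich such window where copies tied). They lie at chr4:95049204-95049233 (minus strand), chr13:5868305-5868334 (plus strand) and chr16:23965391-23965420 (minus strand), from GENCODE M21 transcripts on GRCm38.
Jun: ATTTAtaatcataggaaagATTTAgtaatt
Klf6: aatttgaATTTActttttttttgagaatct
Bcl6: tttacaaATTTAcaaagtgtgtattaaaaa
The whole 3' untranslated region held 4 pentamers in 1233 bases in Jun, 7 in 3111 bases in Klf6 and 1 in 1073 bases in Bcl6. Per kilobase this was 3.24 in Jun, 2.25 in Klf6 and 0.93 in Bcl6, against a median of 1.48 over 248 genes of the table. Jun was therefore denser than 202 of these genes and Klf6 denser than 168, while Bcl6 was denser than 96. The stricter nonamer TTATTTATT was in 0 of the 3 and in 10.1% of the 248 genes. Over the table the median density was 0.90 in 64 higher genes and 1.54 in 184 lower genes, and 64.1% of the higher and 74.5% of the lower genes held at least 1 pentamer. Jun, the densest of the 3, was higher, and lay above the medians of both directions.

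**Figure D1:**
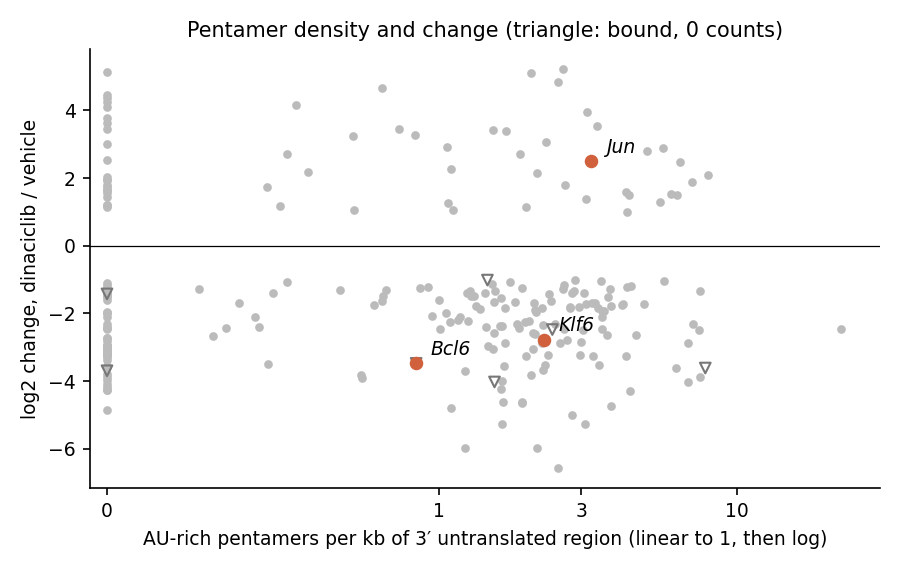
Density of the pentamer ATTTA in the 3' untranslated region (x axis, copies per kb, linear up to 1 and logarithmic above) and log2 change with dinaciclib (y axis) for the 245 tested genes with such a region; triangles are lower bounds on the fall of genes with 0 counts. Jun (3.24 per kb) sits above 0 on the y axis, Klf6 (2.25) and Bcl6 (0.93) below it, and genes of either direction lie on both sides of these densities.

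Vehicle libraries held 31852117 to 40020833 counts and dinaciclib libraries 2541162 to 3316779, a ratio of 12.2 between the group means. The listed genes together made up 2.53% to 2.57% of all counts in vehicle libraries and 9.61% to 12.3% in dinaciclib libraries, although most were lower. The part of this shift in the changes below was not tested. Levels below are the authors' normalised counts, which are raw counts divided by 1 size factor per library, or FPKM, which also divide by gene length. Both are shares of a library, so that more of a message, less of all other RNA, fewer cells and less RNA per cell cannot be told apart. Dinaciclib replicate 2 stood apart: the chi-square of its counts against the other dinaciclib libraries was 38.8 and 59.1 per gene, against 7.39 between replicates 1 and 3, and it was the highest of the 3 in 93 of 179 lower genes with reads and the lowest of the 3 in 51 of 62 higher genes. Of 24 endothelial markers, 4 were in the table (Kdr, Notch1, Gata2 and Fli1), the others not being analysed here, and their summed level was 12680 to 13116 in vehicle and 2431 to 2722 with dinaciclib. Of 24 leukocyte markers, 2 were listed, with a sum of 42.6 to 49.7 in vehicle and 3.70 to 52.4 with dinaciclib, where Cd74 was listed at 0 in replicate 2 and Lck in replicate 1. The 2 went opposite ways, so that the sum stands for neither. Lck was lower, with a log2 change of −3.80. Cd74 was higher in the authors' deposited table, at 4.61, and was not tested here. Of 17 fibroblast and epithelial markers 0 were listed. A marker can be absent for want of a cancer label as well as of change. The part of these markers in the changes below was not tested.

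Jun was the most abundant of the 3 in vehicle cells and was higher still with dinaciclib. It stood at 1442, 1467 and 1571 normalised counts in vehicle replicates 1 to 3 and at 8355, 9139 and 7691 with dinaciclib. The groups did not overlap, and replicate 2 was the highest of the treated libraries, unlike in most higher genes. The mean was 1493 ± 68.5 in vehicle and 8395 ± 725 with dinaciclib (SD, n = 3), a 5.62-fold higher level. The log2 change was 2.49 (SE 0.0893; quasi-likelihood test of edgeR, Benjamini-Hochberg adjusted p = 5.28e-08). In raw reads, Jun had 4440, 4858 and 6097 in vehicle and 2259, 3203 and 2348 with dinaciclib, while 404, 523 and 456 would have been read in these shallower libraries at the vehicle level. Scaled to library totals it was 145 ± 6.81 CPM in vehicle and 892 ± 72.6 CPM with dinaciclib, which was 6.16-fold higher. GENCODE places the antisense gene Junos over 232 bases of the Jun exon, and without a strand mark reads there cannot be assigned to one of them.

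Klf6 varied least of the 3 among vehicle libraries (coefficient of variation 1.71%) and fell with dinaciclib to levels that differed between libraries. It stood at 1375, 1331 and 1341 normalised counts in vehicle and at 99.9, 325 and 154 with dinaciclib. The groups did not overlap, and replicate 2 was the highest of the treated libraries. The mean went from 1349 ± 23.1 to 193 ± 118 (SD, n = 3), which was 6.99-fold lower. The log2 change was −2.78 (SE 0.347; quasi-likelihood test of edgeR, Benjamini-Hochberg adjusted p = 6.62e-05). The treated values rest on 27, 114 and 47 reads, where 365, 473 and 412 would have been read at the vehicle level. Their exact 95% Poisson intervals, which cover counting error only, were 65.8 to 145, 268 to 391 and 113 to 205 normalised counts, so that replicate 2 differed from both others by more than counting error while replicates 1 and 3 overlapped. Without replicate 2 the log2 change was −3.39, a fall 1.53 times deeper on the linear scale (quasi-likelihood test of edgeR, Benjamini-Hochberg adjusted p = 2.57e-09). That of Jun was then 2.42.

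Bcl6 was scarce in vehicle cells and was not read at all with dinaciclib. It stood at 35.4, 35.3 and 37.1 normalised counts in vehicle, from 109, 117 and 144 reads, and at 0 counts in each dinaciclib library. At the vehicle level 9.72, 12.6 and 10.97 reads would have been seen in these libraries, or 33.3 in all. A floor of 3 counts over the group corresponds to 3.24 normalised counts, so that Bcl6 was at least 11.1-fold lower, a bound for counting error only. The fall passed the quasi-likelihood test of edgeR (Benjamini-Hochberg adjusted p = 1.99e-04), and no fold other than the bound is given because the group was at 0. Over 2 dinaciclib libraries in place of 3 the bound was 6.90-fold to 7.86-fold, the floor then resting on fewer reads. The gene Gm37419 overlaps 21 bases of Bcl6 exons on the other strand.

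**Figure D2:**
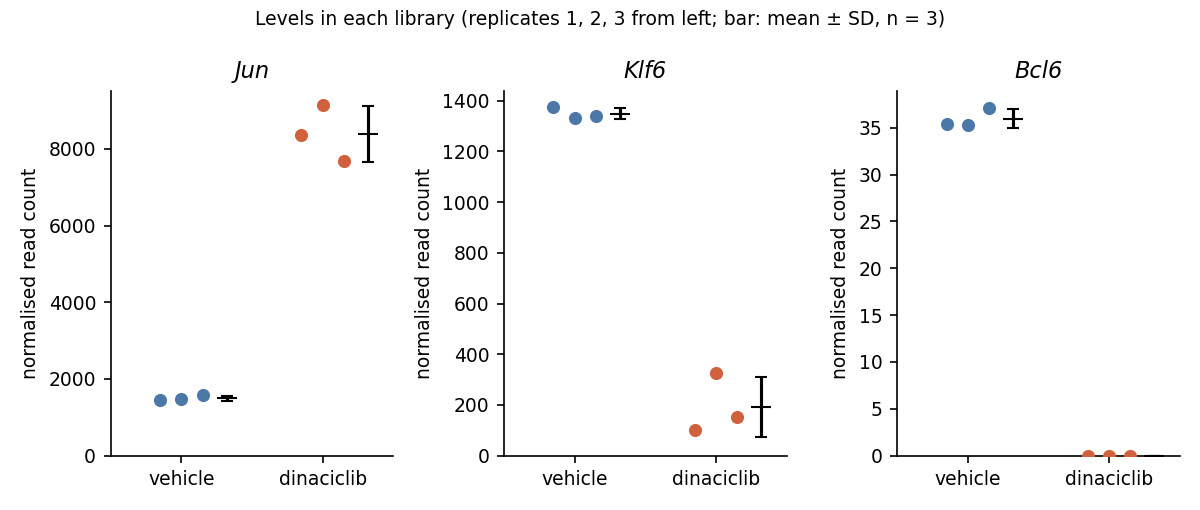
Normalised read counts of Jun, Klf6 and Bcl6 (y axes start at 0 and differ between panels) in the 3 vehicle (blue) and 3 dinaciclib (orange) libraries; bars show mean ± SD, n = 3. Jun runs from 1442 to 1571 in vehicle and from 7691 to 9139 with dinaciclib, Klf6 drops from 1331 to 1375 to between 99.9 and 325 with its high point in replicate 2, and Bcl6 goes from 35.3 to 37.1 to 0.

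Per length, the order in vehicle was Jun, Klf6 and Bcl6, at 45.4 ± 2.13, 29.8 ± 0.452 and 0.520 ± 0.0150 FPKM (SD, n = 3), and no range overlapped its neighbour. With dinaciclib the order was the same with wider steps, at 280 ± 22.8 FPKM for Jun (257 to 303), 4.66 ± 2.82 for Klf6 (2.42 to 7.83) and 0 in all libraries for Bcl6. Among the 251 genes, ranked by FPKM within a library, Jun held ranks 21 to 26 in vehicle and 16 to 19 with dinaciclib. Klf6 went from ranks 35 to 37 to ranks 67 to 125. Bcl6 was near the bottom in vehicle already, at ranks 240 to 243.

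A ratio of genes inside a library does not depend on how libraries are scaled. The FPKM of Jun was 1.44, 1.52 and 1.61 times that of Klf6 in vehicle replicates 1 to 3 and 115, 38.7 and 68.8 times with dinaciclib. The groups did not overlap, and replicate 2 gave the smallest treated ratio. On the log2 scale the mean ratio was 0.61 ± 0.08 in vehicle and 6.08 ± 0.79 with dinaciclib (SD, n = 3), a difference of 5.47, or 44.3-fold. The exact permutation test (two-sided) gave p = 0.1, the smallest that 3 against 3 allows. The authors picked both genes for change on these same libraries, and they went opposite ways, so that this p is no independent evidence. In vehicle, Jun stood at 85.6 to 89.0 times and Klf6 at 55.1 to 59.3 times the FPKM of Bcl6. Ratios between genes rest on the deposited lengths, which were 3189 bases for Jun, 4391 for Klf6 and 6700 for Bcl6. The principal transcript of Bcl6 has 3525 bases, and with that length the ratios to Bcl6 would be smaller.

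**Figure D3:**
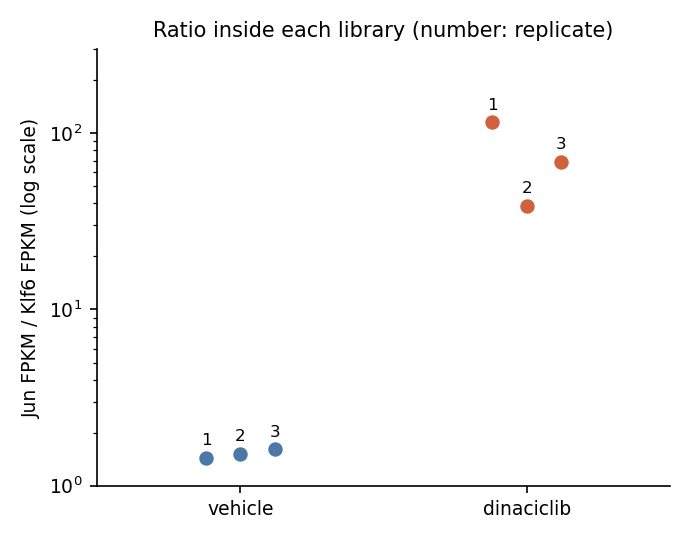
FPKM of Jun divided by FPKM of Klf6 (y axis, logarithmic) in each vehicle and dinaciclib library, with the replicate number above each point. The vehicle ratios lie between 1.44 and 1.61 and the dinaciclib ratios between 38.7 and 115.

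These changes have to be read against a table that is labelled as one of cancer genes and in which every gene was picked for change. By the quasi-likelihood test of edgeR 248 of 248 tested genes (100.0%) passed, 62 (25.0%) higher and 186 (75.0%) lower, so that passing the test, or falling, sets no gene apart. The authors picked these genes on the same libraries, and a call is no independent evidence. In size, Jun was in the middle of the risers, with 28 of the 62 higher genes having a larger change and 33 a smaller one, at a median of 2.22 on the log2 scale. Klf6 had a deeper fall than 113 of the 179 lower genes that kept reads, whose median was −2.34, and 65 fell further. Bcl6 was 1 of 7 genes with 0 counts in all dinaciclib libraries, and the others were Bcl7a, Bcl3, Palb2, Bcl11b, Fas and Prdm1. Of these, 3 were more abundant in vehicle than Bcl6 and 3 less.

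**Figure D4:**
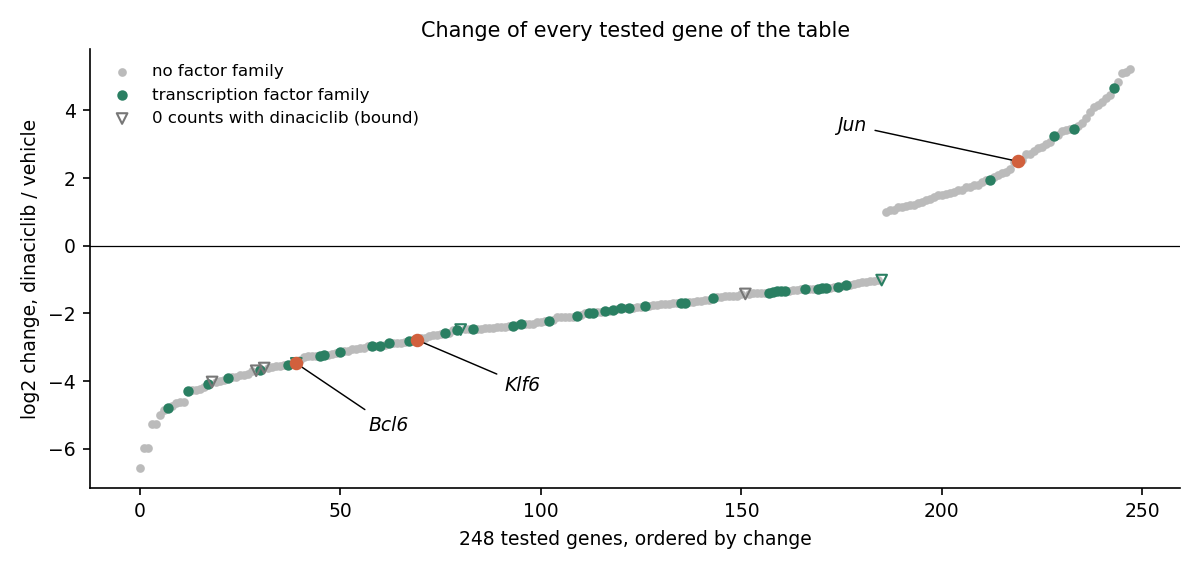
Log2 change with dinaciclib (y axis) of the 248 tested genes in order of change (x axis); green points have a transcription factor family in the deposited table, and triangles are lower bounds on the fall of the 7 genes with 0 counts. Jun sits in the middle of the 62 higher genes, and Klf6 and Bcl6 among the 186 lower genes; no gene lies near 0 because the table lists none there.

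The deposited table gives a factor family for 50 genes, and setting the 3 genes beside their families was chosen after the values were seen. Of the 50, 45 were lower and 5 higher (90.0% lower, against 75.0% of all tested genes), and the 5 were Jun, Hey1, Foxo4, Etv4 and Hmga1b; with TMM factors over the listed genes 22 passed as lower and the same 5 as higher. Of 6 basic leucine zipper genes, Jun was higher and 5 were lower, of which TMM factors kept 1 as lower and gave Creb1 the opposite sign. The deepest of these falls was in Nfe2l2, the oxidative stress regulator NRF2, at 138 ± 33.9 against 1752 ± 55.1. Maf stood at 573 ± 136 against 1655 ± 114, and the CREB gene Creb1 at 264 ± 69.4 against 675 ± 30.9 (all SD, n = 3). Creb3l1, a membrane-bound factor, stood at 37.0, 0 and 3.28 normalised counts with dinaciclib against 94.8 to 114 in vehicle.

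Klf6 belongs to 5 listed genes of the C2H2 zinc finger family, and 5 of them were lower and 0 higher, against 75.0% lower over all tested genes. With TMM factors 2 stayed past the threshold as lower and Zfp384 took the opposite sign. Mecom stood at 48.1, 134 and 16.4 with dinaciclib against 259 to 270 in vehicle, with replicate 2 the highest as for Klf6. Zfp384 stood at 111, 188 and 357 against 510 to 516, with replicate 3 the highest. Bcl11b, a T cell and neuronal factor, and Prdm1, a repressor of B cell identity, had 0 counts and were at least 5.56-fold and 2.02-fold lower, the second with no bound above 1 under TMM factors. Of the 2 ZBTB genes both were lower, also with TMM factors, and Patz1 stood at 61.4 ± 22.9 against 335 ± 17.2 beside Bcl6 at 0.

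**Figure D5:**
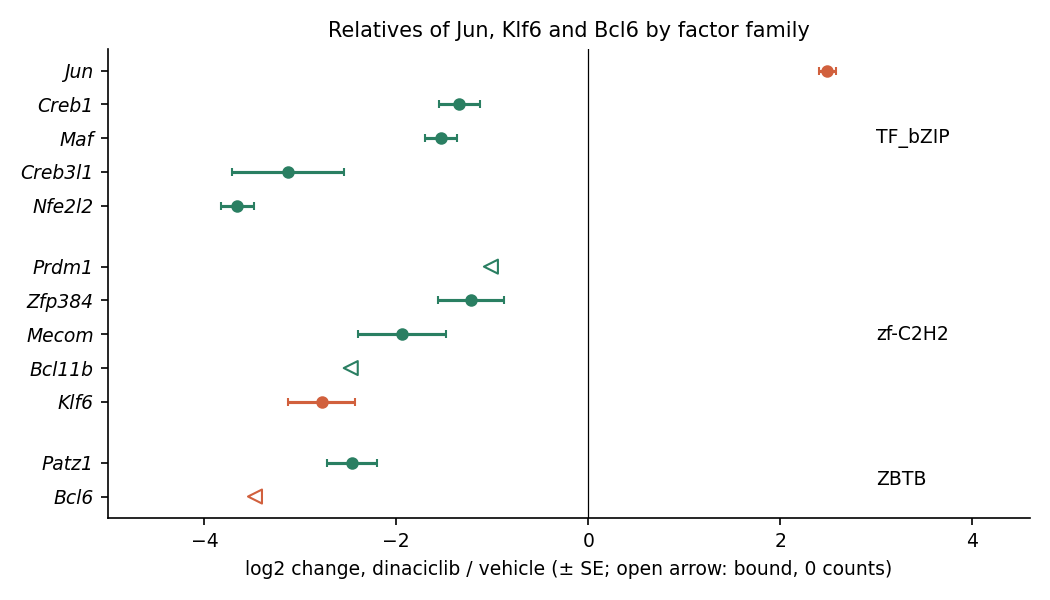
Log2 change with dinaciclib (x axis, ± SE) of the listed genes of the basic leucine zipper, C2H2 zinc finger and ZBTB families, grouped as in the deposited table, with Jun, Klf6 and Bcl6 in orange; open arrows are lower bounds on the fall of genes with 0 counts. Jun, at 2.49, is to the right of 0 and the other genes drawn to the left; 1 basic leucine zipper gene is not drawn.

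Around JUN itself, 5 of the 31 genes on a list of AP-1 subunits and the JNK cascade (Jun included) were in the table. Of these 1 was higher and 4 lower, against 75.0% lower over all tested genes, with a median log2 change of −1.38 against −1.81. With TMM factors 1 stayed lower and Fbxw7 changed sign. Map2k4, a kinase that activates JNK, stood at 112 ± 20.1 against 576 ± 8.57 (SD, n = 3). Fbxw7, the ubiquitin ligase subunit that marks JUN for destruction, stood at 115 ± 22.9 against 279 ± 11.6. No FOS gene and no other JUN gene was in the table, and they were not analysed here. A gene can be absent for want of a cancer label as well as of change. Absence here and in the lists below therefore does not show that a gene was unchanged.

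Of 46 other early response genes 3 were listed, of which 2 were higher and 1 lower, against 25.0% higher and 75.0% lower over all tested genes. The cyclin D1 gene Ccnd1 stood at 47960 ± 3870 against 7368 ± 618 and the Notch effector gene Hey1 at 407 ± 39.6 against 37.2 ± 3.26 (SD, n = 3). The kinase gene Pim1 stood at 74.0, 62.8 and 6.55 with dinaciclib against 260 to 333, and with TMM factors it missed the threshold.

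Around BCL6, 7 of the 34 genes on a list of its relatives, corepressors and B cell factors (Bcl6 included) were in the table. Of these 7 were lower and 0 higher, against 75.0% lower over all tested genes, with a median log2 change of −1.79 against −1.81. With TMM factors 3 stayed past the threshold as lower, Stat5b changed sign, and the bound for Prdm1 no longer lay below the vehicle level. STAT3, which is known to drive BCL6, had its gene at 309 ± 27.5 against 1221 ± 49.4, and Foxp1, a forkhead factor gene of B cells and endothelium, stood at 258 ± 24.9 against 956 ± 24.6 (SD, n = 3). Foxo3, whose protein can induce BCL6, stood at 124 ± 28.2 against 431 ± 26.8. Foxo4, of the same forkhead family but not on this list, was higher, at 2925 ± 339 against 309 ± 10.3 (SD, n = 3). Prdm1, which BCL6 represses in B cells, was at 5.85 to 7.85 in vehicle and at 0 with dinaciclib, as Bcl6 was. Of 26 KLF and SP genes Klf6 was the 1 listed.

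Genes of message decay and of elongation were also in the table, where 75.0% of all tested genes were lower and their median log2 change was −1.81. Of 37 decay genes 3 were listed and 3 were lower, with a median log2 change of −2.11: the P-body helicase gene Ddx6 (119 ± 38.9 against 2880 ± 129), the deadenylase subunit gene Cnot3 (113 ± 33.9 against 481 ± 15.1) and the RNase gene Dicer1 (320 ± 118 against 654 ± 13.9), which changed sign with TMM factors. Of 30 genes of CDK9, its partners, elongation factors and Mediator kinases, 6 were listed, with 5 lower and 1 higher and a median of −1.72; with TMM factors 1 stayed lower and 1 higher. The 1 that was higher was the Mediator gene Med12, at 968 ± 198 against 484 ± 17.98 (SD, n = 3). Cdk9 itself was not in this table of cancer genes and was not analysed here.

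The genes whose profiles were most like each of the 3 were found by the root mean square distance between profiles of log2(normalised count + 1), centred on vehicle, over the 6 libraries. Among those nearest to Jun were the RNA-binding protein gene Hnrnpa2b1 (distance 0.18) and Ccnd1 (0.21), with log2 changes of 2.48 and 2.70; in both, replicate 2 was the lowest of the treated libraries, while it was the highest for Jun. Nearest to Klf6 were Amer1 (0.22), Ep300 (0.31) and Golga5 (0.33), and in each of them dinaciclib replicate 2 was the highest of the 3 treated libraries. Ep300, which encodes the acetyltransferase p300, stood at 48.1, 185 and 151 with dinaciclib against 812 ± 8.51 in vehicle. Nearest to Bcl6 were Palb2 (0.17), Bcl3 (0.17) and Bcl7a (0.38), which all had 0 counts with dinaciclib and stood at 39.6 ± 7.42, 41.8 ± 2.65 and 52.6 ± 2.54 in vehicle (SD, n = 3). With the pseudocount, genes at 0 are near each other when their vehicle levels are alike.

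The direction of each of the 3 held under each scaling tried. TMM factors, which take most listed genes as unchanged, moved the median fitted log2 change of the table from −1.83 to −0.46 and the share of lower calls from 75.0% to 62.7%. Leaving out dinaciclib replicate 2 left the counts higher and lower of the families and of the AP-1, early response, BCL6, decay and elongation lists as given. Under TMM factors the log2 change was 3.87 for Jun and −1.39 for Klf6, with Benjamini-Hochberg adjusted p-values of 1.25e-08 and 0.0144 (quasi-likelihood test of edgeR), and Bcl6 was at least 4.27-fold lower.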

How the data were processed

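RNA sequencing of EHE17 cells was analysed from 1 deposited gene table with 3 vehicle and 3 dinaciclib libraries. This table is labelled as one of cancer genes and has a column of tumour types. The MGH-CP1 table was searched for the 3 genes and for vehicle counts. Samples were grouped by their titles. The submitters' processing notes name DESeq2 1.20.0, featureCounts 1.5.0-p3, HISAT2 2.0.5 and fastp; the build is not given in the sources used here, and 242 of 251 genes (96.4%) had the start and end of GENCODE M21. Per the file headers the table holds the authors' raw read counts and FPKM. The deposited normalised signal equals, on the values, each count over a single factor for its library, and these size factors and the library totals were recovered for 100% of values (relative tolerance 1e-06). The log2 fold changes and the p-values, raw and adjusted, are the authors' own, per the file headers, and every listed gene has an absolute log2 change above 1. Vehicle counts of the 2 genes found in both tables were identical.

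The counts were fitted with edgeR 4.0.16 (R 4.3.3; quasi-likelihood, two-sided, filterByExpr with a minimum count of 10, no covariate), and p-values were adjusted by Benjamini-Hochberg over 248 genes at a threshold of 0.05. The authors' size factors set the scale, since TMM would take picked genes as unchanged. SE is the absolute log2 change over the root of F. On simulated counts over 247 genes the test called 5.88% of 51 unchanged genes, 97.9% of 97 changed by a log2 of 1 and 100% of 99 changed by 2. For a group at 0 the bound takes 3 counts in the whole group.

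The genes, lists and tests were chosen with earlier results of these data known. Besides the 3 genes, the text names, for each list, at most 4 called genes with the smallest p, and the 3 nearest profiles of each gene; others were named after their values were seen, and a few that the rule names are not reported here. Medians over a list or over all tested genes take genes at 0 at their bound, except where scalings are compared, which uses the fitted values. On the list of other transcription factors 26 of 117 were listed, 3 higher and 23 lower. Promoters are RefSeq's (GRCm38.p6), and 3 of 3 genes and 194 of 251 matched by symbol. Transcript features use the principal protein-coding transcript of GENCODE M21. Alternatives were TMM factors, scaling by total counts, DESeq2 1.42.0, no filter, a threshold of 0.01, a replicate block and leaving out each library; figures were drawn with matplotlib 3.10.9.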

Additional observations from a re-analysis of the deposited data

How the results depend on the processing

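Jun, Klf6 and Bcl6 kept their direction and stayed past the threshold in 12 of 12 alternatives each. Leaving out each library in turn gave log2 changes of 2.42 to 2.55 for Jun and −3.39 to −2.48 for Klf6, bounds of −3.48 to −2.79 for Bcl6, and 240 to 249 called genes. The other alternatives gave 2.49 to 3.87, −2.92 to −1.39 and, as bounds, −3.47 to −2.09. With FPKM or CPM the mean level of Jun was 6.16-fold higher in place of 5.62-fold, since library totals shifted the median log2 change by 0.13 from size factors. The called genes numbered 169 with TMM factors in place of 248. With the replicate number as a block (replicate block) 240 genes passed, and the log2 changes were 2.49 for Jun and −2.92 for Klf6. The labels do not say that a number marks a shared origin, and deviations of same-numbered libraries correlated at 0.02, −0.03 and −0.14 over genes, so that the block is no pairing; 1 other named gene, Prdm1, missed the threshold under it, at an adjusted p of 0.0505 (edgeR's quasi-likelihood test, Benjamini-Hochberg).

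Of 47 other named or listed genes, TMM factors left 32 as called, put 9 short of the threshold and changed the sign of 6: Creb1 (0.0355), Dicer1 (0.36), Fbxw7 (0.0817), Stat5b (0.0362), Zfp384 (0.15) and, as a bound, Prdm1 (0.36). These factors centre a picked set by construction. Depth limits Bcl6 most: with 33.3 reads looked for at the vehicle level, a fall deeper than the bound cannot be sized.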
